A study of Homo sapiens with 9 samples.

Results

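The comparison described here sets the change of each gene under the column headed A100 against its change under the degrader JB170, both measured from the vehicle DMSO. It covers all 13410 genes of the authors' deposited table of comparisons, out of 13410 in the series. The RNA came from MV4-11, an established human acute myeloid leukaemia line with an MLL fusion and an internal duplication in FLT3. Cells were kept for 18 h in DMSO, in 100 nM JB170 or in 1000 nM alisertib, with 3 libraries for each of these groups and 9 in all. Separate cultures are not named for the replicates, so a p-value reflects the spread among the libraries, and that spread may be technical. No label gives a group A100, and the number of libraries behind that column is not given. Its header carries the number 100 beside a column headed A1000, which matches the labelled 1000 nM of alisertib, so A100 was read as the same inhibitor near the dose of JB170. The labels do not state that reading, and the column is called A100 throughout.

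Aurora A is a serine/threonine kinase of centrosomes and the early mitotic spindle, where it helps to activate PLK1 and to build spindle poles. An inhibitor such as alisertib blocks its catalytic activity and leaves the protein in place. A degrader brings its target to a ubiquitin ligase, here understood to be the cereblon ligase, so that the proteasome removes the protein. Aurora A inhibition is known to delay cells in mitosis. Setting the columns side by side asks how far the transcripts after loss of activity and after loss of protein differ.

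Every change below is a log2 fold change written as treated minus DMSO. The JB170 column runs opposite in sign to the A100 column as deposited: ANKRD30BL, for example, is at 2.17 in one and -2.31 in the other in the authors' deposited table. The A100 column was therefore multiplied by -1, as were the columns headed A1000 and MK, and the JB170 column was kept. That choice was inferred and no header states it: the values shown give only that the columns run opposite, not which of them is treated minus DMSO. Were JB170 the column to turn and the others to keep, the sizes and the genes called would stay and every higher and lower below would swap. Had JB170 been turned as well as A100, its changes would all have the opposite sign and the difference test would call 270 genes. The columns share the DMSO libraries, so chance deviations of those libraries enter both and make them look alike. The difference between the columns does not contain that deviation. Values per library were not used, so no spread per group can be given, and the depth is unknown. The cell label was checked by the mean log2 CPM, the authors' abundance per gene. FLT3 (9.88), the myeloid factor SPI1 (8.26), CD33 (5.97), MEIS1 (5.76) and MPO (5.26) were abundant in the authors' deposited table, while HOXA9 (1.41), a gene usually high with MLL fusions, CD14 (0.62) and ITGAM (1.95) were low. Among markers of other lineages NCAM1 stood at 6.20, and the 4 others measured were at or below 1.13 in the authors' deposited table.

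Many more transcripts changed in the A100 column than with JB170. With A100, 174 genes passed an adjusted p of 0.05 by the authors' deposited table (1.3% of those tested), with 102 higher (0.761%), 72 lower (0.537%) and a 1.37-fold median change (0.46 on the log2 scale). With JB170, 4 genes passed by the authors' deposited table (0.0298%), 3 of them higher (0.0224%) and 1 lower (0.00746%). Without adjustment, 11.6% of genes with A100 and 3.02% with JB170 were under 0.05 in that table of the authors. The number of libraries behind A100 is not given, so these counts may rest on unequal group sizes. The test of the difference between the columns called 7 genes (0.0522%): HFM1, LINGO1, SLCO5A1, IGF2R, RN7SK, PTPRD and RMRP. All 7 were higher with A100 than with JB170. No gene was called lower with A100 than with JB170 by this approximate normal test with Benjamini-Hochberg adjustment (0%). At an unadjusted p under 0.05 it gave 91 genes higher (0.679%) and 85 lower (0.634%), 1.31% of all genes together. That share is smaller than the threshold of 0.05 itself, so these counts show no excess of differences. Its errors are those implied by the log2 fold changes and p-values of the table, since no exact test is possible without values per library. The other 167 genes called with A100 were not shown to differ from JB170.

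That test kept the shared DMSO libraries in its error, which makes the error too large. With them taken off the number rose to 18 (0.134%), 14 higher (0.104%) and 4 lower (0.0298%), and the same 7 were among them. Taking them off meant halving the summed squared errors. That assumes equal numbers of libraries and equal spread in the DMSO, A100 and JB170 groups, which could not be checked for A100. With an error taken only from genes of like abundance it fell to 4, as RN7SK, PTPRD and RMRP were then lost. The 95% interval of a gene's difference reached a median of 0.32 to either side over the 9321 genes with a mean log2 CPM of at least 3. For 6161 of these (66.1%) the whole interval lay between -0.5 and 0.5, so a larger difference than that was outside the interval of those genes.

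**Figure D1:**
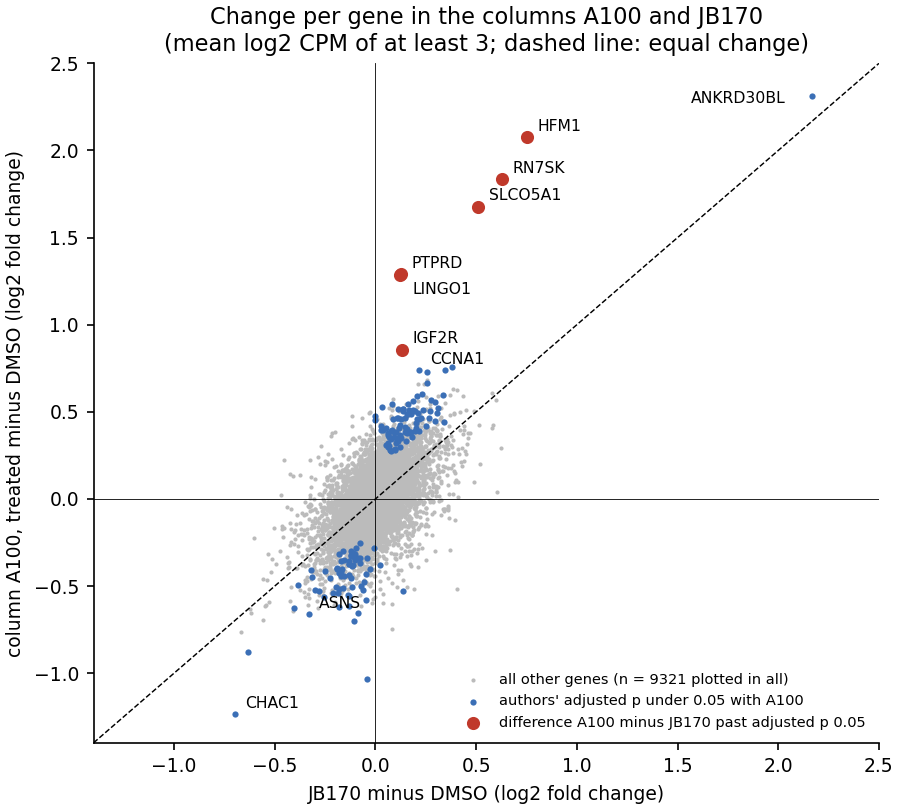
Log2 fold change against DMSO in the JB170 column (x axis) and the A100 column (y axis) for the 9321 genes with a mean log2 CPM of at least 3; each point is 1 gene, red where the difference passed an adjusted p of 0.05, blue where the gene passed with A100 in the authors' deposited table. The red genes lie far above the dashed line of equal change, ANKRD30BL lies beside it at 2.17 and 2.31, and the cloud is lengthened along the diagonal; both axes share the DMSO libraries, whose part in that was not tested.

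HFM1, a DNA helicase gene of meiotic crossing over (ENSG00000162669, GRCh38 chromosome 1 from 91260766 to 91404869, minus strand), stood at 2.08 with A100 and 0.75 with JB170 in the authors' deposited table, and passed in both columns. The difference was 1.33 (95% interval 1.09 to 1.56, adjusted p = 2.13e-23, from the errors that the authors' p-values imply, as for every difference below). SLCO5A1, which belongs to the organic anion transporters (chromosome 8 from 69667047 to 69835064, minus strand), was at 1.68 and 0.51 in the authors' deposited table and also passed in both. Its difference was 1.17 (0.89 to 1.44, adjusted p = 2.43e-13 with the error from the authors' p-values). In the direction chosen for JB170, then, both columns moved upwards for HFM1 and SLCO5A1, and the rise under A100 was the larger.

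A further 3 protein-coding genes were called with A100 and not with JB170 in the authors' deposited table. Of these, IGF2R was also called with A1000 in the authors' deposited table (adjusted p = 0.000148). LINGO1, a leucine-rich repeat membrane protein known from neurons (chromosome 15 from 77613027 to 77820900, minus strand), stood at 1.28 with A100 (adjusted p = 2.04e-43) and at 0.12 under JB170 (p = 0.216) in the authors' deposited table. The difference for LINGO1 was 1.16 (0.90 to 1.42, adjusted p = 1.13e-14 with the error from the authors' p-values). IGF2R, the receptor that carries mannose 6-phosphate tagged enzymes to lysosomes and clears IGF2 (chromosome 6 from 159969099 to 160113507, plus strand), stood at 0.86 and 0.13 in the authors' deposited table. The IGF2R difference was 0.72 (0.51 to 0.94, adjusted p = 1.14e-07 with the error from the authors' p-values). PTPRD, a receptor tyrosine phosphatase (chromosome 9 from 8314246 to 10612723, minus strand), was at 1.29 with A100 and 0.13 with JB170 in the authors' deposited table. By the errors of the authors' p-values the difference was 1.17 (0.65 to 1.68, adjusted p = 0.0218), and with an error from genes of like abundance it did not pass (0.148).

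The remaining genes of the 7 are small noncoding RNAs made by RNA polymerase III and known to lack a poly(A) tail, although the libraries were made after poly(A) selection. RN7SK, the RNA that holds the elongation factor P-TEFb inactive, was at 1.84 with A100 and 0.63 under JB170 in the authors' deposited table, and the difference was 1.21 (0.71 to 1.71, adjusted p = 0.00609; 0.0965 with an error from genes of like abundance). RMRP, the RNA subunit of the ribonuclease MRP that cuts precursor ribosomal RNA, stood at 2.08 and 0.71 in the authors' deposited table. Its difference of 1.37 (0.73 to 2.00) had an adjusted p of 0.0477, which moved to 0.713 with an error from genes of like abundance. The last 60 bases of both RNAs, from the GENCODE 29 transcripts, are printed 5′ to 3′ because they show how these molecules end. RN7SK was matched by its gene identifier (331 bases, GRCh38 chromosome 6 from 52995620 to 52995950, plus strand) and RMRP by its symbol (264 bases, chromosome 9 from 35657754 to 35658017, minus strand).
RN7SK: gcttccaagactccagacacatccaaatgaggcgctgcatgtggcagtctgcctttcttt
RMRP: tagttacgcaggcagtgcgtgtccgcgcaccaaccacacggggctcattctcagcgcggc
Neither ends in an encoded run of A, and the longest run of A anywhere in either RNA was 3 bases.

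The list of RNAs without a poly(A) tail, which includes RN7SK and RMRP, lay in the same direction. Of its 6 measured members, 5 rose with A100 and none fell, against 0.761% of all genes called higher, and none was called with JB170. The list's median, with RN7SK and RMRP included, was 1.88 with A100 and 0.68 with JB170, beside 0.00 for all genes in each column. RN7SK and RMRP were the 2 members called in the difference, against 0.0522% of all genes, and no other member was. RN28S1, a ribosomal RNA entry of the large subunit, stood at 1.93 with A100 and 0.66 with JB170 in the authors' deposited table; its difference of 1.27 (0.61 to 1.93) was not past the threshold (adjusted p = 0.268) and passed once the shared DMSO libraries were taken off (adjusted p = 0.000156). RNU4-1, the spliceosomal U4 RNA, was at 3.71 and 2.22 and SNORD3A, the U3 small nucleolar RNA, at 1.65 and -0.33 in the authors' deposited table, both at a mean under 1 log2 CPM. Replication-dependent histone genes, whose transcripts mostly end in a stem-loop without a tail, had a median of 0.50 with A100 and 0.28 with JB170 over 47 members. Among them 3 rose with A100 and none fell, against 0.761% of all genes called higher. HIST1H2AC (0.74 with A100, 0.35 with JB170), HIST1H2BD (1.46 and 0.84) and HIST1H2BK (0.50 and 0.20) in the authors' deposited table were those 3, and none was called in the difference. The longest annotated transcript had 1668 bases for HIST1H2AC and 789 for HIST1H2BD, beside a list median of 717.5. Whether the reads of these 3 came from transcripts with or without a tail was not tested. Histone genes are near-identical copies, so reads may have been split between them. How much of these RNAs was carried past poly(A) selection in each library was not tested.

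The protein-coding genes with the largest increases were next examined for small RNA genes in the GENCODE 29 annotation. HFM1 holds 1 small RNA annotation in an intron, SLCO5A1 holds the 7SK pseudogene RN7SKP29 in an intron, both on the opposite strand. ANKRD30BL holds RNA5-8SP5 (a 5.8S ribosomal RNA pseudogene) and MIR663B in introns and RNU6-1132P in an exon, all on its own strand. PTPRD holds RNU7-185P and RN7SL5P on the opposite strand, while LINGO1 and IGF2R hold none. The share of all genes that hold such an annotation was not counted, so the overlaps are not shown to be particular to these genes. Whether reads of such RNAs were counted for these genes was not tested, and no source used here gives the strand setting of the authors' counting.

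The column headed A1000 was set beside these values to see whether they followed the number in the header. LINGO1 was at 1.28 with A100 and 0.23 with A1000, IGF2R at 0.86 and 0.36, HFM1 at 2.08 and 1.27, and SLCO5A1 at 1.68 and 0.96 in the authors' deposited table, each higher under A100. The test of A100 minus A1000, built in the same way, called 12 genes of all (0.0895%), 9 higher (0.0671%) and 3 lower (0.0224%). It passed for LINGO1 (1.05, 0.80 to 1.31), HFM1 (0.81), SLCO5A1 (0.71) and IGF2R (0.49, adjusted p of 0.00570). For RN7SK (0.63, interval 0.16 to 1.11), PTPRD (0.81, 0.31 to 1.31) and RMRP (1.11, 0.49 to 1.73) it did not pass. All these genes had been called for standing higher with A100 than with JB170, and the same A100 values enter this test. Their place above A1000 is therefore in part given by that choice. Other large increases with A100 went either way. CCNA1 was at 0.74 with A100 and 1.25 with A1000, and FAM117A at 0.76 and 0.23, in the authors' deposited table.

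**Figure D2:**
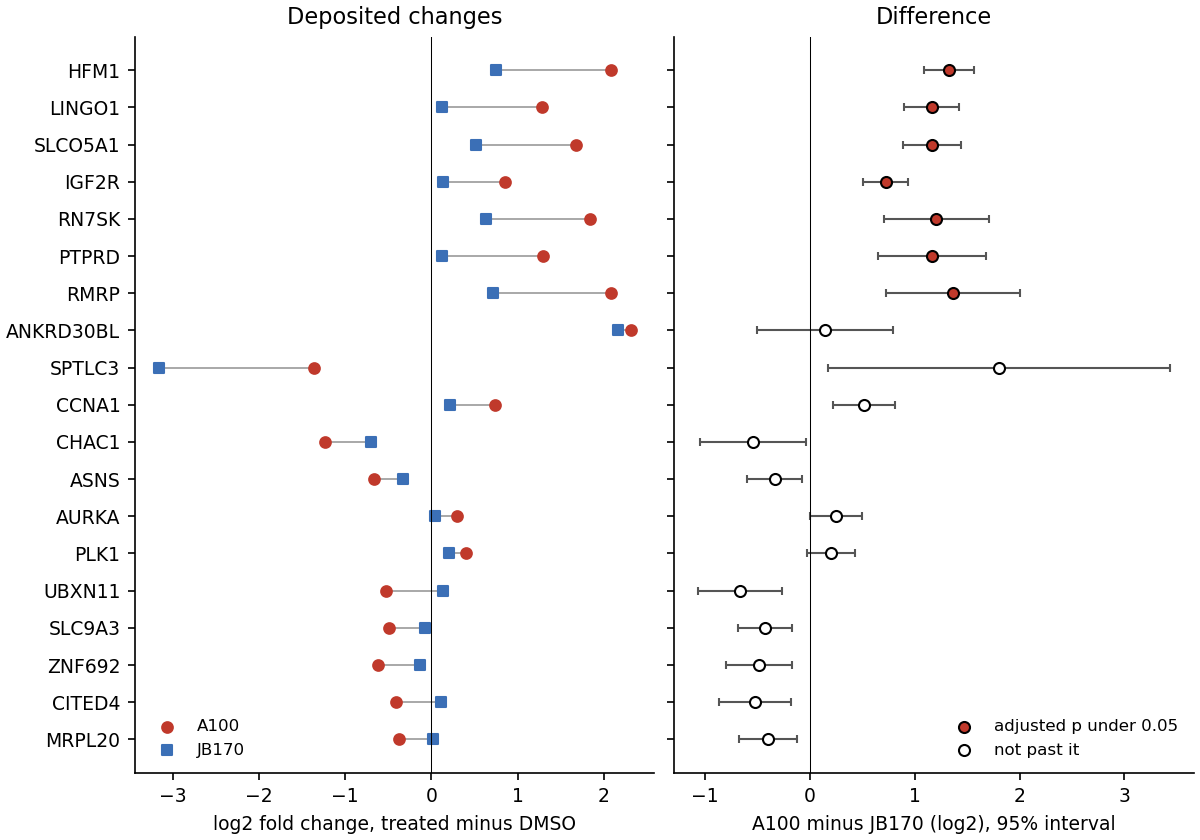
Left, log2 fold change against DMSO in the A100 column (red circles) and the JB170 column (blue squares) in the authors' deposited table; right, A100 minus JB170 with its 95% interval, filled where the adjusted p was under 0.05. The 7 filled genes all lie to the right of 0, from 0.72 for IGF2R to 1.37 for RMRP, and the interval of ANKRD30BL spans 0.

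The genes called with JB170 were then followed into the A100 column. ANKRD30BL, an ankyrin repeat gene, was at 2.17 with JB170 (adjusted p = 6.78e-16) and at 2.31 with A100 (adjusted p = 2.06e-20) in the authors' deposited table. The difference of 0.15 had an interval from -0.50 to 0.79 and did not pass, but the like sign of both values follows from the direction chosen for the JB170 column. With JB170 turned as well, the ANKRD30BL difference would be 4.48 and would pass. SPTLC3, a subunit of serine palmitoyltransferase, which starts sphingolipid synthesis, fell by 3.16 with JB170 (adjusted p = 0.00582) and stood at -1.36 with A100 (adjusted p = 0.201) in the authors' deposited table. At its low mean of 1.07 log2 CPM the difference was 1.80 with an interval from 0.17 to 3.44, and it did not pass, also with the shared DMSO libraries taken off (adjusted p of 0.304). SPTLC3 had the largest change called with JB170, yet the data do not show that it differed from A100.

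On the side lower with A100 than with JB170 no gene passed, so the 5 with the smallest p are given as values. UBXN11, a UBX domain gene, was at -0.53 with A100 and 0.13 with JB170 in the authors' deposited table, a difference of -0.66 (-1.06 to -0.26). CITED4, a CBP/p300 binding coactivator, was at -0.41 and 0.11 in the authors' deposited table (difference -0.52, -0.86 to -0.18). ZNF692, a zinc finger gene, was at -0.62 and -0.13 in the authors' deposited table (difference -0.48, -0.80 to -0.17). SLC9A3, a sodium/proton exchanger, was at -0.50 and -0.07, and MRPL20 of the mitochondrial ribosome at -0.38 and 0.02, in the authors' deposited table. Once the shared DMSO libraries were taken off, UBXN11 (adjusted p of 0.00518), SLC9A3 (0.00604), ZNF692 (0.0160) and CITED4 (0.0183) passed and MRPL20 did not (0.0556). Exons of UBXN11 overlap the annotated spans of SH3BGRL3 and CD52, and exons of SLC9A3 that of EXOC3, all on the opposite strand. Whether exons overlap exons was not examined. Both values may be uncertain if strand was not used in counting. Exons of SLC9A3 also overlap the span of the noncoding PP7080 on its own strand, so its value may be uncertain either way.

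Besides RN28S1, 6 genes were called higher only with the shared libraries taken off. POLR2A, the largest subunit of RNA polymerase II, was at 0.59 with A100 and 0.21 with JB170 in the authors' deposited table, a difference of 0.39 (0.16 to 0.61; adjusted p = 0.719, then 0.00156). CCNA1, a cyclin mostly known from the testis and from myeloid leukaemia, was at 0.74 and 0.22 in the authors' deposited table, a difference of 0.52 (0.23 to 0.82; adjusted p = 0.661, then 0.00122). RAB11FIP1, an effector of recycling endosomes, was at 0.48 and 0.00 in the authors' deposited table (difference 0.48, 0.22 to 0.74; then adjusted p = 0.000294). C12orf35 (0.39), UBR4, a ubiquitin ligase (0.36), and AHNAK, a giant scaffold protein (0.31), had smaller differences, which passed at adjusted p-values of 0.00122, 0.0401 and 0.0387.

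Among genes called with A100 with a mean log2 CPM of at least 3, the largest increases were those of ANKRD30BL, HFM1, RN7SK, SLCO5A1, PTPRD, LINGO1 and IGF2R, given above. FAM117A (0.76 with A100, 0.38 with JB170), HIST1H2AC and CCNA1 completed the 10 in the authors' deposited table. The largest decrease was that of CHAC1, a glutathione-degrading enzyme, at -1.24 with A100 and -0.70 with JB170 in the authors' deposited table. MXRA8, an adhesion protein, was at -1.03 and -0.04, MED31 of the Mediator complex at -0.88 and -0.63, and FAM156A at -0.70 and -0.11 in the authors' deposited table. ASNS, C8orf73 (-0.66 and -0.09), the secreted protein SPON2 (-0.63 and -0.40) and the small nucleolar RNA host SNHG12 (-0.62 and -0.18) followed in the authors' deposited table. ZNF692 and LZTFL1 (-0.58 and -0.05), a regulator of ciliary traffic, were the last of these in the authors' deposited table. None of these 10 decreases was called with JB170, and none was called in the difference by the test that keeps the shared libraries in its error.

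Transcript length moved with the changes. The longest annotated transcript in GENCODE 29 was found for 13197 of 13410 genes (98.4%). Its median was 7036 bases for genes called higher with A100 and 2465 bases for genes called lower, beside 3510 bases for all genes. For the genes called in the difference it was 7003.5 bases, over the 6 that had a length. RMRP is left out of that median because its identifier had no match. Its transcript, matched by symbol, has 264 bases, so the median would be lower with it. With genes of at least 3 log2 CPM put into 5 equal bins by length, the median change with A100 ran from -0.06 in the shortest bin to 0.07 in the longest, and with JB170 from -0.02 to 0.02. The median difference ran from -0.03 to 0.05. In the longest bin 56 genes were called higher with A100 and none lower, and in the shortest 10 were higher and 27 lower. The bins between, from short to long, had 7 higher and 18 lower, 13 and 7, and 7 and 12. The balance of calls therefore did not follow length in order. RNA integrity per library was not analysed here, and the part of length in the results was not tested.

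**Figure D3:**
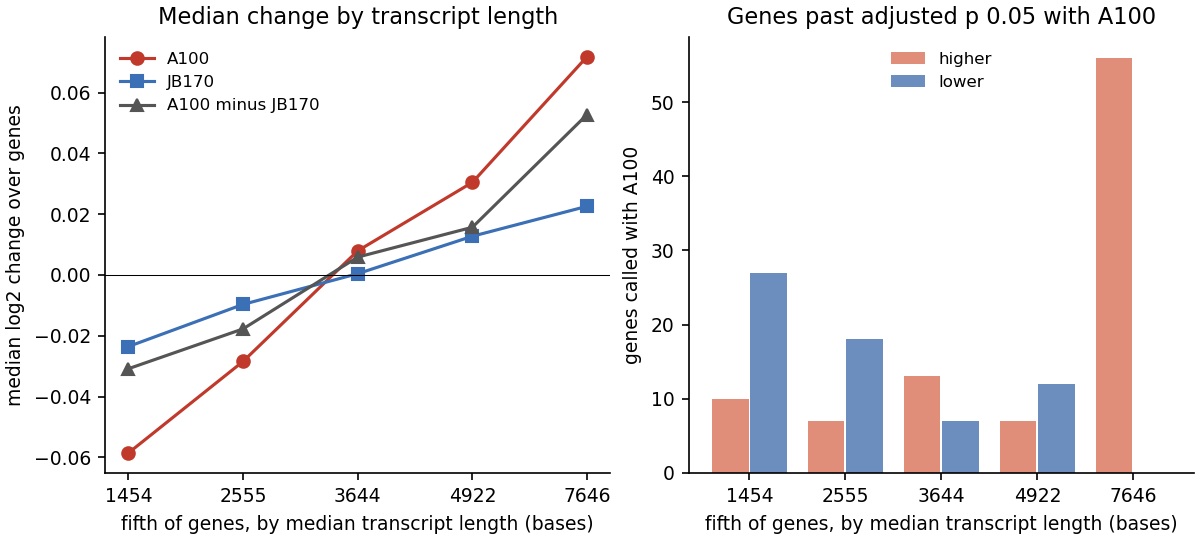
Genes with a mean log2 CPM of at least 3 in 5 equal bins by their longest annotated transcript, labelled by the median length in bases; left, the median log2 change against DMSO with A100 and JB170 and the median difference; right, the number of genes past an adjusted p of 0.05 with A100 in the authors' deposited table. The medians rise with length from -0.06 to 0.07 for A100 and from -0.02 to 0.02 for JB170. Among the 1845 genes of the longest bin 56 were called higher, against 0.761% of all genes of the table.

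The target and its pathway came next. AURKA itself stood at 0.29 with A100 (adjusted p = 0.0592) and at 0.04 under JB170 in the authors' deposited table, and the difference of 0.25 (0.01 to 0.50) did not pass (adjusted p = 1.00). PLK1, the mitotic kinase that Aurora A activates, rose by 0.41 with A100 (adjusted p = 0.000373) and was at 0.20 under JB170 (p = 0.0157) in the authors' deposited table; the difference was 0.21 (-0.02 to 0.43). CKAP5, a microtubule polymerase of spindle poles, rose by 0.33 with A100 (adjusted p = 0.00752) and was at 0.15 under JB170 in the authors' deposited table. BORA, the cofactor of PLK1 activation, was at 0.27 and 0.18, TPX2, the activator of Aurora A on the spindle, at 0.12 and 0.04, and AURKB at -0.17 and -0.01 in the authors' deposited table. Of 15 measured members of this list 2 rose with A100, none with JB170, and none was called in the difference, against 0.761%, 0.0224% and 0.0522% of all genes.

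Genes of the cereblon ligase had small values in both columns. CRBN, its substrate receptor, was at -0.28 with A100 and -0.07 with JB170, and its partners DDB1 at 0.20 and 0.05 and CUL4A at 0.12 and 0.02, in the authors' deposited table. The difference for CRBN was -0.21 (-0.56 to 0.14). CSNK1A1, a kinase that some cereblon ligands bring to the ligase, was at 0.27 and 0.09 in the authors' deposited table. ZNF692, in the same list because cereblon ligands can recruit it, was the 1 member of 11 that fell with A100 in the authors' deposited table (adjusted p = 6.50e-05), against 0.537% of all genes called lower.

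Genes of G2/M and mitosis had a median above that of all genes in both columns. In bulk RNA a larger share of cells in a phase and more RNA of these genes per cell cannot be told apart. Of 61 measured members 2 rose with A100, HMMR and PLK1, and none fell, against 0.761% of all genes called higher; the list's median was 0.12 with A100 and 0.04 with JB170, beside 0.00 for all genes. HMMR, a spindle assembly factor, rose by 0.51 with A100 (adjusted p = 9.04e-05) and was at 0.14 under JB170 in the authors' deposited table, a difference of 0.38 (0.10 to 0.65, adjusted p = 1.00). The importin KPNA2 was at 0.25 and 0.11 in the authors' deposited table. An unadjusted p under 0.05 was found with A100 for 17 members higher and 3 lower, and with JB170 for 1 higher and none lower, against 6.34% and 5.3% of all genes with A100 and 1.39% and 1.63% with JB170.

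S phase and DNA replication genes showed no called member in either column. Over 61 members the median was -0.04 with A100 and -0.01 with JB170. GINS1 of the replicative helicase was at -0.32 and -0.10, the clamp PCNA at -0.21 and -0.02, the ribonucleotide reductase subunit RRM2 at -0.21 and -0.01, and MCM5 at 0.21 and 0.06, in the authors' deposited table. The list of D cyclins, their kinases and inhibitors had 13 members and no call, with RBL1, a relative of the retinoblastoma protein, at 0.29 and 0.11, CDKN2C at -0.23 and -0.04, CCND2 at -0.20 and -0.07 and RB1 at 0.17 in both, in the authors' deposited table. The p53 target list had 24 members and no call; BTG2 was at 0.55 and 0.27, GADD45A at -0.55 and -0.28, SESN2 at -0.34 and -0.24 and PPM1D at 0.27 and -0.01, in the authors' deposited table.

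ATF4 is a transcription factor that cells make under amino acid shortage or translational stress, and that turns on amino acid synthesis and transport. Its list held the most decreases with A100: of 45 measured members 7 fell and none rose, against 0.537% of all genes called lower. No member was called with JB170, where 8 had an unadjusted p under 0.05, all lower, against 1.63% of all genes. The list's median was -0.12 with A100 and -0.09 with JB170, and the median difference was -0.04. No member was called in the difference, so none was shown to differ between the columns.

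CHAC1 had the largest values of the list that were called, with a difference of -0.54 between the columns (-1.04 to -0.03). ASNS, asparagine synthetase, fell by 0.66 with A100 (adjusted p = 4.81e-09) and stood at -0.33 under JB170 (p = 0.000353) in the authors' deposited table, a difference of -0.33 (-0.59 to -0.07, adjusted p = 1.00). ATF4 itself fell by 0.40 with A100 and stood at -0.19 under JB170 in the authors' deposited table. DDIT4, an inhibitor of mTORC1, was nearer in both, at -0.50 with A100 and -0.39 with JB170 in the authors' deposited table (difference -0.11, -0.42 to 0.20). PSAT1 of serine synthesis (-0.33 and -0.12), the pseudokinase TRIB3 (-0.37 and -0.13) and SLC3A2, the heavy chain of amino acid transporters (-0.30 and -0.16), were the other members that fell with A100 in the authors' deposited table. In the direction chosen for JB170, CHAC1 thus lay lowest in both columns among these 7. Every one of them lay below 0 with JB170 in that direction, without being called.

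The promoters of these genes were searched for the core of the ATF4 and C/EBP composite element, TGATGNAA, on both strands of the 250 bases before each gene's start (RefSeq, GRCh38.p14). The motif was present for 2 of the 7 members called with A100, for 9 of the 33 members matched by symbol (27.3%), and for 3.89% of the 27305 genes with such a promoter. ASNS and CHAC1 were the 2 called members with the motif, and their promoter stretches are printed for that reason. They are given 5′ to 3′ on the strand of the gene, with the motif in capitals. That of ASNS is chr7:97872443-97872502 (minus strand, motif starting 68 bases before the gene's start). That of CHAC1 is chr15:40953236-40953295 (plus strand, motif 209 bases before the start and read on the opposite strand).
ASNS: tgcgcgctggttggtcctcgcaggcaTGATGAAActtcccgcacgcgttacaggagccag
CHAC1: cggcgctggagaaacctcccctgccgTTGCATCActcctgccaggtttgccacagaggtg
A match is a description of the letters only.

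**Figure D4:**
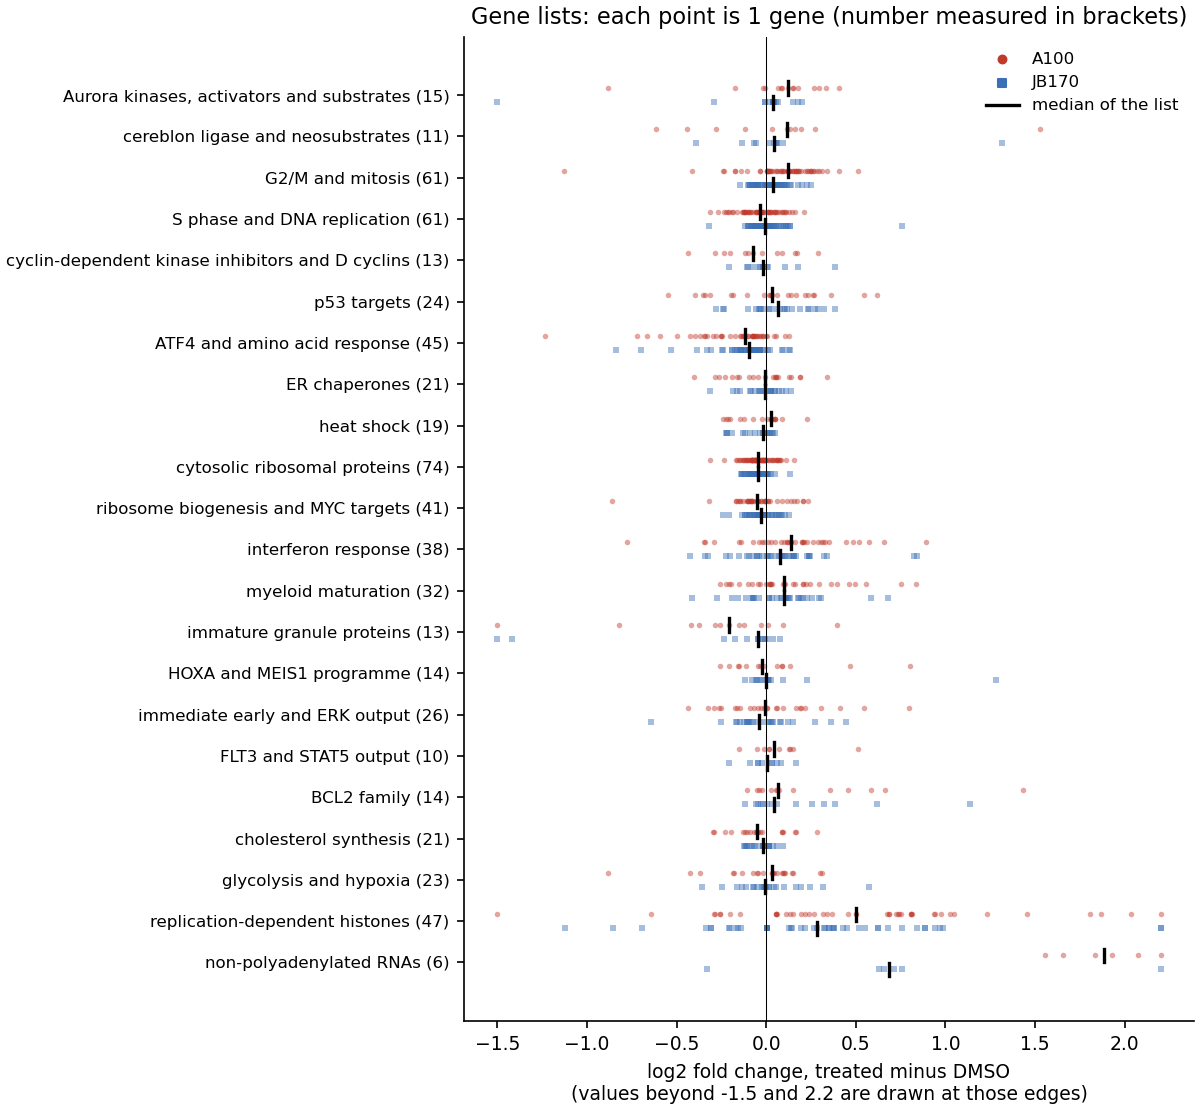
Log2 fold change against DMSO of each measured gene in 22 lists, with A100 as red circles above and JB170 as blue squares below in each row; black bars are medians. The list of RNAs without a poly(A) tail lies farthest to the right, at medians of 1.88 and 0.68, while the other medians lie between -0.21 and 0.50.

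Genes of protein folding and ribosomes moved little. Against 0.537% of all genes called lower, 1 of 21 endoplasmic reticulum chaperone genes fell with A100, HERPUD1 of the degradation complex of that organelle, at -0.40 (adjusted p = 0.0212) and -0.16 with JB170 in the authors' deposited table. ATF6 was at 0.34 and 0.14, MANF at -0.29 and -0.03 and CALR at 0.19 and 0.05 in the authors' deposited table. The heat shock list (19 members, no call) held HSPA1A at -0.24 and -0.19, HSPA1B at -0.23 and -0.13, CHORDC1 at -0.21 and -0.22 and HSP90AA1 at -0.15 and -0.02 in the authors' deposited table. Over 74 cytosolic ribosomal protein genes the median was -0.05 in both columns with no call. RPL41 was at -0.23 and -0.13 and RPS21 at -0.31 and -0.01 in the authors' deposited table, both of them short transcripts. The ribosome biogenesis list (41 members, no call) had UTP3 at -0.32 and -0.14, POLR1A at 0.23 and 0.13, CAD at 0.21 and 0.00 and NOP56 at -0.17 and -0.09 in the authors' deposited table. MYC stood at -0.09 with A100 and -0.03 with JB170 in the authors' deposited table, a difference of -0.06 (-0.28 to 0.15).

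Myeloid genes were described by stage. Of 32 maturation genes 3 rose with A100 and none fell, against 0.761% of all genes called higher, with medians of 0.10 in both columns. CD68, a lysosomal protein of macrophages, rose by 0.49 with A100 and was at 0.31 under JB170 in the authors' deposited table. ANPEP, the surface peptidase CD13, rose by 0.56 and was at 0.30 with JB170, and CSF1R, the receptor for the growth factor of macrophages, rose by 0.46 and was at 0.21 under JB170, in the authors' deposited table. Among 13 genes of immature granules 2 fell with A100, against 0.537% of all genes called lower: the granule proteins AZU1 (-0.42 with A100, -0.17 with JB170) and PRTN3 (-0.28 and -0.01) in the authors' deposited table. MYB, a factor of immature cells, was at -0.26 with A100 (adjusted p = 0.0553) and -0.05 with JB170 in the authors' deposited table. No gene of either list was called in the difference, so none was shown to differ between the columns. For PRTN3 the difference was -0.28 (-0.48 to -0.07).

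The counts of the next lists stand against 0.761% of all genes called higher and 0.537% called lower with A100. In the HOXA and MEIS1 programme of MLL-rearranged leukaemia 1 of 14 members rose with A100, JMJD1C, a histone demethylase family gene, at 0.46 and 0.23 with JB170 in the authors' deposited table. LMO2 was at -0.16 and -0.12 and HOXA11 at -0.21 and 0.01 in the authors' deposited table. Of 38 interferon response genes 2 rose with A100, SAMD9 (0.44, and 0.34 with JB170) and the DNA sensor IFI16 (0.52 and 0.14), in the authors' deposited table, and PARP14 was at 0.29 and -0.05. In the BCL2 family 1 of 14 rose, the pro-apoptotic BMF, at 0.66 with A100 and 0.26 with JB170 in the authors' deposited table (difference 0.41, 0.00 to 0.81), while BCL2L11 was at 0.46 and 0.32. INSIG1, a sterol-regulated brake on cholesterol synthesis, fell by 0.30 with A100 and was at -0.12 under JB170 in the authors' deposited table, 1 of 21 in its list. The lists of immediate early and ERK output genes (26 members), FLT3 and STAT5 output (10) and glycolysis and hypoxia (23) held no call. In these DUSP6, the ERK phosphatase, was at 0.30 with A100 and 0.15 with JB170, PIM1 at -0.15 and -0.05 and VEGFA at -0.42 and -0.25 in the authors' deposited table. Of the 22 lists, only that of RNAs without a poly(A) tail held a gene called in the difference when the shared libraries stayed in the error; taking them off added ZNF692 in the cereblon list and RN28S1.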

How the data were processed

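Reads of poly(A)-selected, directional libraries were handled with FastQC, TopHat2 2.1.1 and Bowtie2 2.3.2 on hg19, per the submitters' processing notes; no source used here gives the counting, normalization, test or adjustment. Per the file headers, each comparison of DMSO with a treatment in the deposited table has its log2 fold change with raw and adjusted p-values, and the table has 1 mean log2 CPM whose libraries are not named. The table held 80 entries with 5 repeated identifiers, which were reduced to 1 each. The authors' adjusted p-values with A100 stand to p as a Benjamini-Hochberg adjustment of 16812 tests would have them, and 3402 of those are not analysed here.

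The columns A100, A1000 and MK were multiplied by -1 and JB170 kept, by inference. A100 minus JB170 was divided by the root of the summed squared errors implied by each log2 fold change and its p-value. A gene's own error was used at an absolute z of at least 1, otherwise the median over 60 bins of mean log2 CPM. To take the shared DMSO libraries off, the summed squared errors were halved, which assumes equal library numbers and spread in each group. P-values were two-sided normal, adjusted over 13410 genes (Python 3.11.15, SciPy 1.17.1, statsmodels 0.14.6), and the code was checked on simulated data. Without values per library, no library could be left out and no block fitted. Named genes were the target genes, every gene called with JB170, the 10 largest called differences and A100 changes per direction at a mean log2 CPM of at least 3 (the 5 smallest p where under 5 were called), and the 4 members per list with the smallest p with A100; RMRP, RN28S1 and the genes called with the shared libraries taken off were also named after their values were seen. Members and lists were chosen with earlier results of these data known. Intervals cover the error implied by the authors' p-values only.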

Additional observations from a re-analysis of the deposited data

Results flagged for a closer look

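The column headed MK, which no label assigns to a group and which enters no comparison above, also holds a signal against DMSO. There 63 genes passed an adjusted p of 0.05 by the authors' deposited table (0.47%), 43 higher and 20 lower. LINGO1, the gene with the second smallest p in the difference between A100 and JB170, stood at 1.45 with MK in the authors' deposited table, beside 1.28 with A100 and 0.12 with JB170. IGF2R (0.74) and PTPRD (0.77) also passed with MK in the authors' deposited table, as did every other gene called in the difference. The direction of the MK column is inferred too, as it was turned together with A100.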

How the results depend on the processing

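The difference between A100 and JB170 gave 7 genes, 18 with the shared DMSO libraries taken off the error, 4 with an error from genes of like abundance for every gene, and 270 (146 higher and 124 lower) when the sign of the JB170 column was turned like that of A100. The number therefore rests on the inferred direction of the JB170 column; the 7 genes were called in that reading too. SPTLC3 reversed there, to -4.52, and ANKRD30BL went from 0.15 to 4.48. The number was 6 with genes of at least 3 log2 CPM only, where RMRP is not included, and 7 with 20 bins or without repeated identifiers. With Benjamini-Hochberg over the genes analysed, A100 gave 190 calls and JB170 4; over genes of at least 3 log2 CPM they gave 159 and 3. Over those genes the SD of the difference divided by its error was 0.798, and 1.13 with the shared libraries taken off, where 1 would be exact for unchanged genes. No paired analysis was possible because values per library were not used, and no replicate could be left out for the same reason. The depth is unknown, so what it limits was not measured.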
